A study of Rattus norvegicus with 2 samples.

Results

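The genes described here are the rat lung's chromatin remodelers and histone methyltransferases, together with the demethylases and bromodomain readers that share their naming families. They were chosen by symbol alone: every Kmt, Kdm, Chd, Baz, Brd or Smarc family symbol followed by its number or letter, and Srcap, which gave 63 of 42172 listed genes. By role these were 5 Kmt2 methyltransferases, 3 Kmt5 methyltransferases, 19 Kdm demethylases, 10 Chd remodelers, 6 Smarca-type ATPases, 8 other Smarc subunits, 4 Baz proteins, 7 Brd readers and Srcap. The label of the group therefore covers fewer than all of its members, since demethylases and readers are neither remodelers nor methyltransferases. Levels were measured by droplet-based single-cell RNA sequencing of 3' ends in dissociated lung from rats exposed to a gas explosion, against lung from unexposed control rats. All animals were kept under specific pathogen free conditions. Strain, sex, age, time after the blast and the number of animals per library are not given in the labels. Each group had 1 library, so no difference between the groups has a replicate check and no test was run.

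DNA in the nucleus is wound around histones, and these proteins set how accessible it is. Remodelers of the SWI/SNF, ISWI, CHD and INO80/SRCAP families burn ATP to slide, evict or exchange nucleosomes. Kmt and Kdm enzymes add and remove methyl groups on histone lysines, and bromodomain proteins read acetylated ones. In the lung the same machinery serves resident macrophages, recruited leukocytes, airway epithelium and the pleural lining, and some members, such as Kdm6b, are known as inflammation-induced genes of myeloid cells.

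The libraries themselves differed. After filtering and doublet removal, 11845 explosion cells with a median of 532 UMIs (unique molecular identifiers, which count captured transcripts) and 19231 control cells with a median of 4677 UMIs remained. The libraries shared 85 cell barcodes. Ribosomal protein genes took 5.67% of the explosion UMIs and 10.5% of the control UMIs, and mitochondrial ribosomal RNAs 3.54% and 0.690%. Rn45s, a ribosomal RNA gene, took 0.303% of the explosion and 0.0091% of the control UMIs. In T-like cells, Scgb1a1, a secretory product of club cells that T cells do not make, took 1.30% of explosion and 3.15% of control UMIs. Cells were clustered without the 63 genes, and clusters were named from marker genes. In 7 classes both libraries held at least 200 cells, and these were compared. Of their marker lists, 18 of 19 monocyte markers had a UMI in explosion and 16 of 19 in control cells, and no other list lacked more than 1. The same lists named the clusters, and 1 UMI in a class sum is a low bar, so this does not show that the classes match. Summed NK markers had 18269 CPM in explosion and 46221 CPM in control NK-like cells, and ciliated markers 8862 and 15537 CPM in ciliated-like cells. Only the macrophage list was higher in the explosion library, at 11400 against 8280 CPM. All but ciliated-like cells (cluster 12) came mostly from different clusters in the 2 libraries: macrophage-like from cluster 4 in the explosion and cluster 0 in the control library, monocyte-like from clusters 1 and 11, T-like from 6 and 5, NK-like from 16 and 20, B-like from 14 and 13, and mesothelial-like from 8 and 9.

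The genes took a larger part of the transcripts in the explosion library in every class. Summed over the 63 genes, macrophage-like cells held 6653 CPM (UMI counts scaled to the total of the class; 95% exact Poisson interval 6546 to 6762) in the explosion library and 2809 CPM (2795 to 2823) in the control library. T-like cells held 11875 CPM after the explosion and 4699 CPM in control, B-like cells 12536 and 5778 CPM, and NK-like cells 9365 and 4945 CPM. The explosion value was also the higher one in monocyte-like cells, at 8499 against 3711 CPM, in mesothelial-like cells, at 7079 against 2871 CPM, and in ciliated-like cells, at 7279 against 3752 CPM. Among the 7 classes, the lymphocyte-like ones were the richest in these transcripts in both libraries. Counting intervals here and below cover counting error only, not the spread between animals. Depth was set equal by thinning each cell to 500 UMIs and leaving shallower cells out. A macrophage-like cell then held UMIs of 3.14 of the genes on average in the explosion library (1772 cells) and 1.41 in the control library (8828 cells). For T-like cells these means were 5.26 genes (384 cells) and 2.24 genes (1362 cells). In bulk-like sums of this kind, more RNA of these genes and less RNA of all others cannot be told apart.

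**Figure D1:**
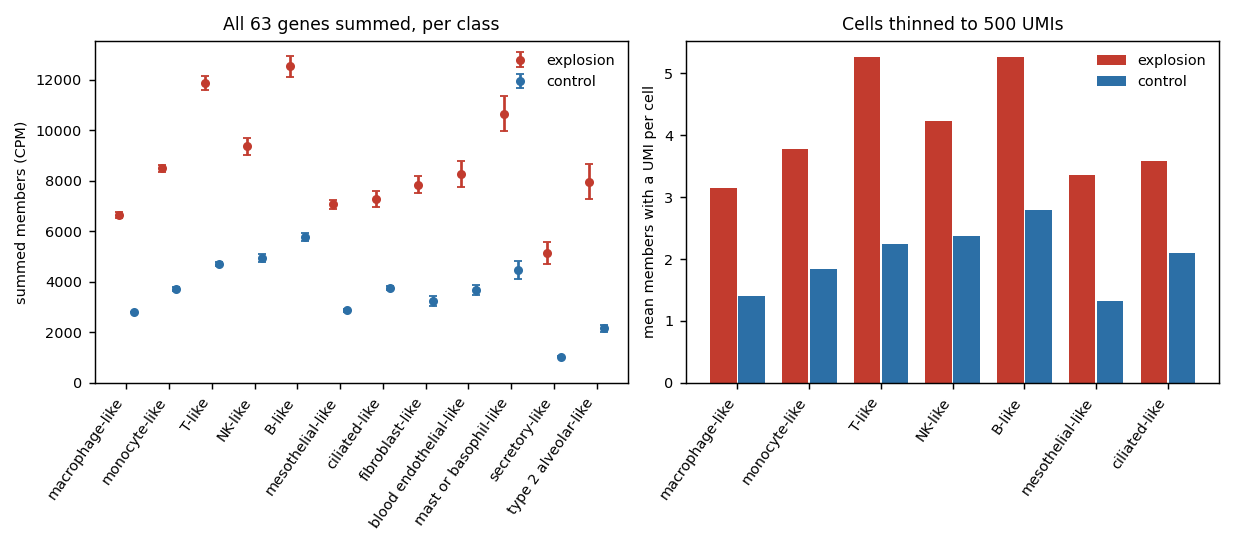
Left, summed level of the 63 genes (CPM of the class, with 95% Poisson intervals) in 12 classes, explosion in red and control in blue. Right, mean number of the genes with a UMI per cell after thinning to 500 UMIs in the 7 compared classes. Explosion lies above control in every class of both panels.

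The typical gene also had a higher CPM in the explosion library, so each gene was set against its class. The median log2 ratio over all tested genes, explosion over control, ran from 0.16 in ciliated-like to 0.68 in T-like cells. Below, a relative log2 ratio is a gene's log2 CPM ratio minus that class median, so that 0 is the typical gene and 1 is 2-fold more. Of the 63 genes, 58 had enough UMIs for this in at least 1 class and 51 in at least 6 of the 7. The other 5 were Chd5, Kdm4d, Kdm4dl2, Smarca1 and Smarce1l, and of these Kdm4dl2 (0 explosion and 1 control UMI) and Smarce1l (0 and 0 UMIs) were at or under 1 UMI in each library.

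On this relative scale most members still stood above the typical gene. The median member was 0.69 in macrophage-like cells (56 members tested), 0.61 in monocyte-like cells (55), 0.63 in T-like cells (56), 0.35 in NK-like cells (51), 0.53 in B-like cells (52), 0.73 in mesothelial-like cells (56) and 0.87 in ciliated-like cells (49). All tested genes had quartiles of -0.71 and 0.58 in macrophage-like cells and -0.83 and 0.66 in ciliated-like cells, so the median member lay above the upper quartile of all genes in both. It did so in T-like, monocyte-like and mesothelial-like cells too, but not in NK-like cells, with an upper quartile of 0.52, or B-like cells, with one of 0.59. The number above the class median ran from 37 of 51 in NK-like to 45 of 49 in ciliated-like cells.

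Counts of members at least 2-fold above the typical gene were read against the same count over all genes. In macrophage-like cells 13 of 56 members were at least 2-fold higher, against 12.3% of all tested genes, and 1 was at least 2-fold lower, against 17.9%. In monocyte-like cells 10 of 55 were higher and 2 lower, with backgrounds of 12.6% and 17.5%. In T-like cells 13 of 56 were higher and 0 lower, with backgrounds of 11.5% and 17.9%. Higher members thus made up 23.2% of those tested in macrophage-like and T-like cells. The share was 18.2% in monocyte-like cells, closer to its background. In NK-like cells 9 of 51 were higher and 0 lower, against 10.5% and 15.3% of all genes. In B-like cells 12 of 52 were higher and 0 lower, against 11.8% and 18.4%. The 2 non-leukocyte classes had the most: in mesothelial-like cells 21 of 56 were higher and 1 lower, against 13.7% and 20.4%, and in ciliated-like cells 22 of 49 were higher and 1 lower, against 14.4% and 21.0%. On the plain CPM ratio, without subtracting the class median, between 19 of 51 members (NK-like) and 42 of 56 (macrophage-like) were at least 2-fold higher, against 18.7% to 35.5% of all genes. On that ratio 0 members were 2-fold lower in any compared class, against 7.02% (NK-like) to 17.4% (ciliated-like) of all genes. With no filter on low counts the picture was different: 7 of 62 members were higher in macrophage-like cells, against 29.9% of all genes with a UMI, 8 of 59 in T-like cells, against 23.8%, and 8 of 60 in ciliated-like cells, against 18.2%. The share of members was then below that of all genes in 6 classes and above it in mesothelial-like cells, with 22 of 60 against 24.3%. In cells with at least 500 UMIs, 2 of 14 B-like members were higher, against 14.3% of all genes. When a gene had to reach 20 UMIs in each library, 4 of 39 NK-like members were higher, against 6.29%. The ciliated-like count then fell to 11 of 43 (25.6%), against 12.3%. That share was near the 21.4% of macrophage-like and 20.0% of T-like cells. In mesothelial-like cells 19 of 51 (37.3%) were still higher, against 11.0%.

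**Figure D2:**
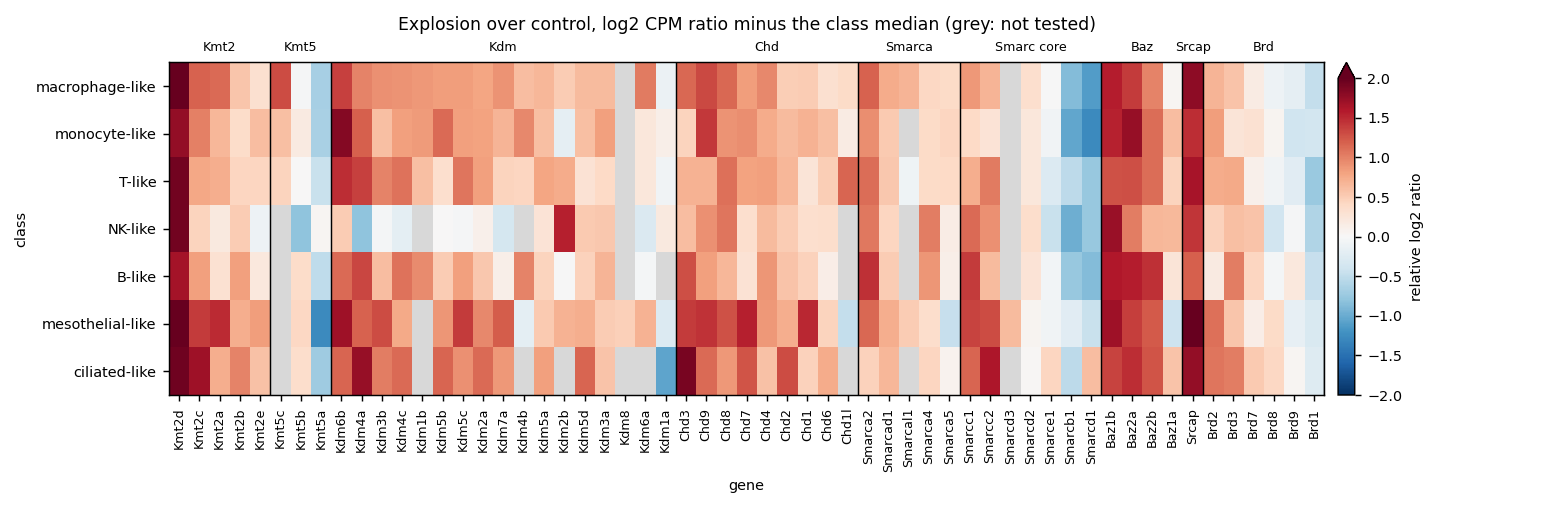
Relative log2 ratio, explosion over control, of 57 of the 58 genes tested in at least 1 class (columns, by role and then by their median) in the 7 compared classes (rows). Red is above and blue below the typical gene of the class, and grey was not tested. Kmt2d, Srcap, Baz1b and Baz2a are red in all 7 classes, and Smarcb1, Kmt5a and Brd1 are blue in nearly all; on the plain CPM ratio the median of Brd1 turns positive.

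Among the methyltransferases of H3K4, the histone mark of promoters and enhancers, Kmt2d stood out. Kmt2d, which with Kmt2c primes enhancers, had the highest median of all 51 members, 1.93, with a range over classes of 1.67 to 2.02. In macrophage-like cells it had 221 CPM (489 UMIs) in the explosion library and 35.4 CPM (1951 UMIs) in the control library, a 6.25-fold ratio (5.64 to 6.90). In NK-like cells it had 318 CPM after the explosion and 59.8 CPM in control, 5.31-fold (3.73 to 7.67), and in mesothelial-like cells 194 and 33.6 CPM, 5.77-fold (4.46 to 7.49). The smallest ratio among the compared classes was in ciliated-like cells, at 228 CPM after the explosion and 53.5 CPM in control, 4.26-fold (3.13 to 5.77). The explosion value thus lay above the control value in each of the 7 classes. The other members of the family were nearer to the typical gene: the medians were 1.01 for Kmt2c, 0.72 for Kmt2a, the founding mixed-lineage leukemia gene, 0.55 for Kmt2b and 0.42 for Kmt2e, a relative without known methyltransferase activity on H3K4. In NK-like cells Kmt2e lay slightly below the typical gene, at -0.10, and the plain CPM ratio put it above, at 1.30-fold (1.06 to 1.58).

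The balance within the Kmt2c and Kmt2d pair differed between the libraries. Kmt2c gave 51.4% of the pair's UMIs in explosion macrophage-like cells (518 of 1007, exact Clopper-Pearson interval 48.3 to 54.6) and 65.5% in control ones (64.2 to 66.7). In T-like cells its share was 46.9% (42.8 to 51.1) after the explosion and 66.4% (62.6 to 70.0) in control. NK-like cells showed the widest gap, with 48.8% (41.7 to 55.9) in the explosion and 72.7% (65.4 to 79.2) in the control library. The share was lower in the explosion library in all 7 compared classes, and the intervals overlapped in ciliated-like cells, at 53.9% and 58.1%, and barely in mesothelial-like cells, at 63.7% and 72.9%. For the related pair Kmt2a and Kmt2b, the Kmt2a share in macrophage-like cells was 79.8% (76.0 to 83.2) after the explosion and 72.5% (71.1 to 73.8) in control. The intervals of this share overlapped in the other 6 compared classes.

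The 3 methyltransferases of H4K20, a mark of chromosome compaction, differed among themselves. Kmt5a, which places the first methyl group and is needed for cell division, had a median of -0.64. In mesothelial-like cells Kmt5a had 44.0 CPM (40 UMIs) in the explosion and 75.4 CPM (211 UMIs) in the control library, a ratio of 0.584 (0.406 to 0.822). In macrophage-like cells it was level in plain CPM, with 88.7 CPM after the explosion and 90.8 CPM in control, 0.977-fold (0.843 to 1.13), while the typical gene there was higher after the explosion. Kmt5b, which adds the further methyl groups, had a median of 0.18. Its relative Kmt5c, tested in 3 classes, had a median of 0.60, and in macrophage-like cells it had 19.5 CPM (43 UMIs) after the explosion and 5.16 CPM (284 UMIs) in control, 3.77-fold (2.67 to 5.21).

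Of the demethylases, Kdm6b had the highest median, 1.37, over a range of 0.51 to 1.84. Kdm6b removes the repressive H3K27 mark and is known as a gene that inflammatory signals induce in macrophages. In monocyte-like cells it had 879.8 CPM (1524 UMIs) in the explosion library and 178 CPM (442 UMIs) in the control library, 4.93-fold (4.43 to 5.50). In macrophage-like cells it had 163 CPM after the explosion and 40.8 CPM in control, 4.00-fold (3.57 to 4.47). The ratio was smallest in NK-like cells, where Kdm6b had 330.1 and 167 CPM, 1.98-fold (1.52 to 2.57). Kdm6a, the X-linked enzyme of the same reaction, had a median of 0.23, and its share of the pair's UMIs in monocyte-like cells was 4.39% after the explosion (3.44 to 5.52) and 12.3% in control (9.56 to 15.5).

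The demethylases as a family had a median of 0.74 over the 14 genes tested in at least 6 classes, and NK-like cells were the class where they were lowest. There their median was 0.06, against 0.84 in macrophage-like and 1.08 in ciliated-like cells. At least 2-fold higher were 1 of 14 in NK-like cells (10.5% of all genes), 2 of 16 in macrophage-like cells (12.3%) and 7 of 12 in ciliated-like cells (14.4%), so that the first 2 counts were near the background. The filter on low counts takes the mean of both libraries, so genes could pass it mainly through their explosion level. With 20 UMIs needed in each library, the ciliated-like count over all members fell from 22 of 49 to 11 of 43. That count was not made for the demethylases alone. Kdm4a, which acts on H3K9 and H3K36, was lowest in NK-like cells. It had 27.5 CPM (9 UMIs) in explosion NK-like cells and 35.6 CPM (28 UMIs) in control ones, 0.772-fold (0.321 to 1.68), but 87.5 and 21.2 CPM in T-like cells, 4.13-fold (2.79 to 6.11). Kdm4c, Kdm3b, Kdm7a and Kdm5c also had relative values at or below 0 in NK-like cells, from -0.36 to -0.03, and above 0 in each of the other 6 compared classes. Counts there were low: Kdm5c had 14 explosion and 25 control UMIs, and 2.90% and 3.09% of explosion NK-like cells held a UMI of Kdm4c and Kdm7a. Counting error was not set beside these 4 values, so a shared dip in NK-like cells is not shown. Other demethylases did not follow: Kdm2b, a reader of unmethylated CpG, had 1.55 and Kdm1a 0.19 in NK-like cells, the highest class of each. The difference between NK-like and other cells was not tested, and the explosion and control NK-like cells lay in clusters 16 and 20. Kdm1a, the flavin-dependent H3K4 demethylase of the CoREST complex, had the lowest median of the family, -0.10, which turns to 0.54 on the plain CPM ratio. The X-linked Kdm5c and its Y-linked relative Kdm5d, near copies whose reads may be split between them, had medians of 0.84 and 0.60.

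The CHD remodelers had a family median of 0.83 over 8 genes. Chd3, an ATPase of the NuRD complex, had a median of 1.14 and a range of 0.45 to 1.90, and with no filter on low counts its median was 0.59. In ciliated-like cells Chd3 had 117 CPM in the explosion and 28.3 CPM in the control library, 4.15-fold (2.68 to 6.33), and in monocyte-like cells 60.6 and 32.3 CPM, 1.88-fold (1.39 to 2.54). Chd9 followed at 1.13 and Chd8, a gene tied to autism, at 1.06. Chd4, the other NuRD ATPase, had 685 CPM in explosion and 242 CPM in control T-like cells, 2.83-fold (2.50 to 3.21), with a median of 0.83. Chd7, the CHARGE syndrome gene, also had a median of 0.83. Chd1, Chd2 and Chd6 had medians of 0.47, 0.63 and 0.44. Chd1l was tested in 4 classes and lay below the typical gene in mesothelial-like cells, at -0.47.

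The Baz proteins, which guide ISWI-type ATPases through a bromodomain, had the highest family median, 1.26 over 4 genes. Baz1b, the Williams syndrome transcription factor, had a median of 1.58 (range 1.27 to 1.73). It had 207 CPM (458 UMIs) in explosion and 45.0 CPM (2478 UMIs) in control macrophage-like cells, 4.61-fold (4.16 to 5.09). In NK-like cells Baz1b had 400.4 CPM after the explosion and 86.5 CPM in control, 4.63-fold (3.43 to 6.30). Baz2a, which silences ribosomal RNA genes, had a median of 1.40. Its values in monocyte-like cells were 271 CPM after the explosion and 58.9 CPM in control, 4.60-fold (3.81 to 5.57), and in B-like cells 491 and 116 CPM, 4.23-fold (3.28 to 5.47). Baz2b followed with 1.12. Baz1a was apart from these with a median of 0.45, and in mesothelial-like cells it had 30.8 CPM after the explosion and 29.3 CPM in control, 1.05-fold (0.659 to 1.63).

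Baz1a and Baz1b, which serve different ISWI complexes, stood in a different balance in the 2 libraries. Baz1a gave 56.4% of the pair's UMIs in explosion macrophage-like cells (53.4 to 59.4) and 78.9% in control ones (78.2 to 79.7). In mesothelial-like cells its share was 13.4% (9.09 to 18.8) after the explosion and 40.4% (33.6 to 47.5) in control. The explosion share was lower in all 7 compared classes, with intervals that overlapped in ciliated-like cells only. With called doublets kept, the control share in mesothelial-like cells was 62.1%, and the explosion share remained the lower one.

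**Figure D3:**
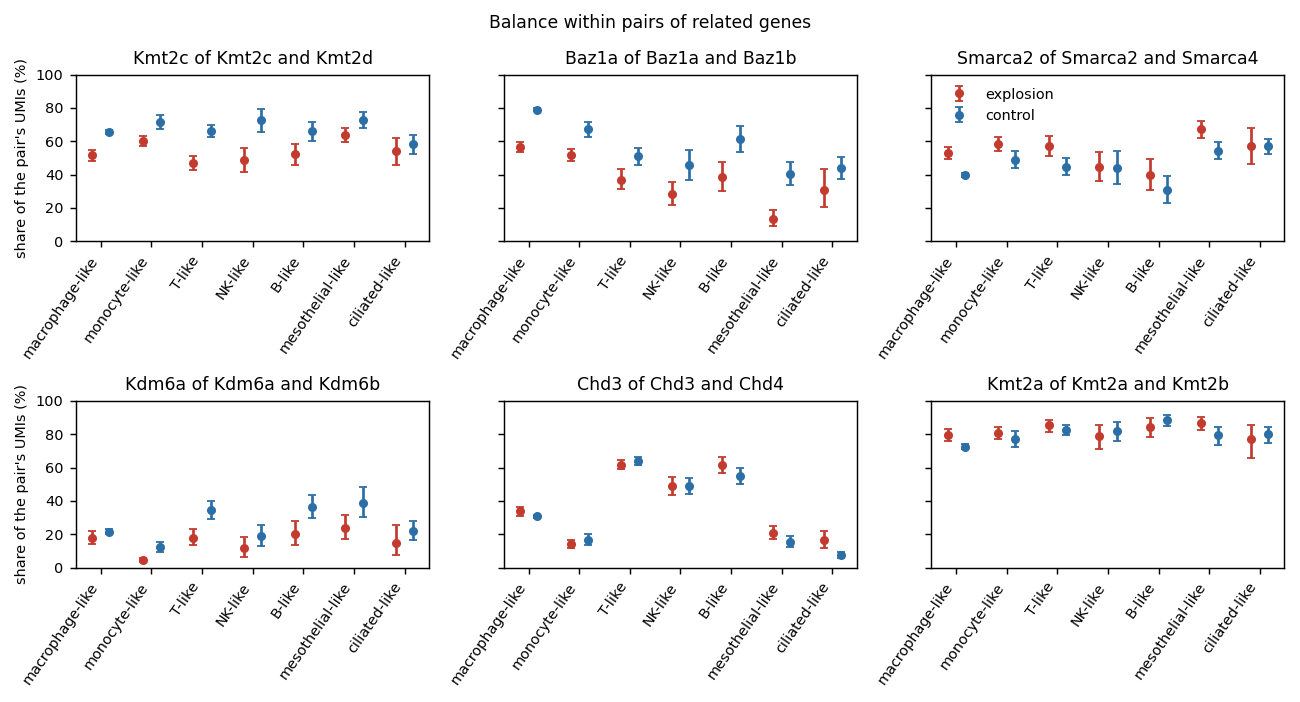
Share of the first gene in the UMIs of 6 pairs of related genes (%, with 95% Clopper-Pearson intervals) in the 7 compared classes, explosion in red and control in blue. Explosion lies below control for Kmt2c and Baz1a in all 7 classes, while the Kmt2a share lies between 72.5% and 88.6% in both libraries and the Chd3 share separates T-like, B-like and NK-like from the other classes.

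Srcap, the ATPase that exchanges the histone variant H2A.Z into nucleosomes, had the median next to that of Kmt2d, 1.65, and was at least 2-fold above the typical gene in 7 of 7 classes. In mesothelial-like cells it had 122 CPM (111 UMIs) in the explosion and 20.4 CPM (57 UMIs) in the control library, a relative log2 ratio of 2.07. In macrophage-like cells it had 101 CPM after the explosion and 18.9 CPM in control, 5.35-fold (4.61 to 6.19). B-like cells had the smallest ratio, with 208 CPM after the explosion and 64.0 CPM in control, 3.25-fold (2.24 to 4.71). The listed INO80 and SRCAP partners did not share this: their median member was -0.66 over the 7 classes, from -0.85 in ciliated-like to 0.01 in NK-like cells. H2az2, a gene of the exchanged variant itself, was lowest at -1.99. Trrap, a scaffold of acetyltransferase complexes that was listed with these partners, was highest at 0.75.

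**Figure D4:**
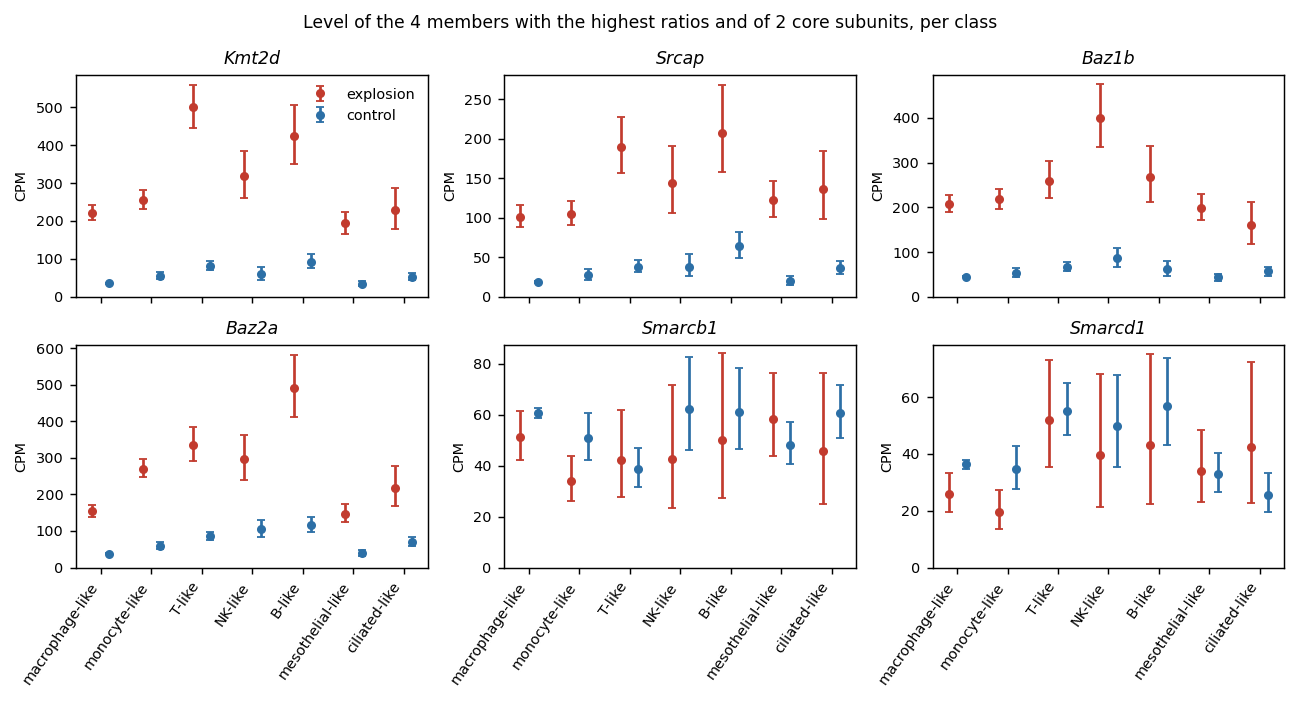
Level (CPM of the class, with 95% Poisson intervals) of Kmt2d, Srcap, Baz1b, Baz2a, Smarcb1 and Smarcd1 in the 7 compared classes, explosion in red and control in blue, each axis starting at 0. Explosion lies above control with no overlap for the first 4 genes in all 7 classes, and lower or overlapping for Smarcb1 and Smarcd1.

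Promoter sequences are shown for the 3 members with the highest medians that have an entry in the RefSeq promoter table of assembly GRCr8, because these genes were higher together in every compared class. Kmt2d has no entry. Each is the 250 bases before the annotated start, 5′ to 3′ on the gene's strand, and capitals mark matches on either strand to a GC box (GGGCGG) or a CCAAT box (CCAAT).
Srcap, chr1:191553793-191554042, plus strand: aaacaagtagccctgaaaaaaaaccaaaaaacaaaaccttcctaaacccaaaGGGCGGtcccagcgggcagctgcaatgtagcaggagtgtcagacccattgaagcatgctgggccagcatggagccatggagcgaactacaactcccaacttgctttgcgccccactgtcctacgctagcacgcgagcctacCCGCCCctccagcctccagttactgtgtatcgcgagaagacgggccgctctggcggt
Baz1b, chr12:27126512-27126761, minus strand: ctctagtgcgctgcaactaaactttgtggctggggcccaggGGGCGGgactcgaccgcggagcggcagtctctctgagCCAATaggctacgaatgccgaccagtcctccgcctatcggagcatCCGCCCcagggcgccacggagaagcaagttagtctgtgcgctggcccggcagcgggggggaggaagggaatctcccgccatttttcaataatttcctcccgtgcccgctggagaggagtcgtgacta
Baz2a, chr7:1112573-1112822, plus strand: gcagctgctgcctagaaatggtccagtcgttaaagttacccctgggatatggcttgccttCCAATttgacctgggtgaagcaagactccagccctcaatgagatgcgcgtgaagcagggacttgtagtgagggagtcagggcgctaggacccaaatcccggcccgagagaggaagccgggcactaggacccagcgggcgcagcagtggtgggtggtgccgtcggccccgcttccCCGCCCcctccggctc
All 3 hold a GC box and none holds TATAAA or CGGAAG, the letters of a TATA box and an ETS core. Of the 51 members with an entry, 74.5% hold a GC box, against 32.4% of 27457 promoters. For CCAAT the shares are 35.3% and 34.3%, for CGGAAG 21.6% and 14.7%, and for TATAAA 1.96% and 13.1%. Member promoters had a median of 18 CpG and 62.4% G and C, against 6 CpG and 52.0% in all promoters. The comparison took every promoter with an entry, not only those of genes expressed in these cells. The differences are therefore not shown to be particular to the members. A GC box and an ETS core can share bases where GGGCGG runs on into AAG, and a match is a description of sequence, not of a bound factor.

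Within SWI/SNF, the complex that moves nucleosomes at enhancers and promoters, the subunits differed from each other. Smarca2, the BRM ATPase, had a median of 1.11, and Smarca4, the BRG1 ATPase that replaces it, 0.41. Smarcc1 and Smarcc2, the paired scaffold of the complex, had medians of 1.13 and 0.91. In mesothelial-like cells Smarcc1 had 152 CPM in the explosion and 41.8 CPM in the control library, 3.63-fold (2.82 to 4.69), and in monocyte-like cells 123 and 67.8 CPM, 1.81-fold (1.47 to 2.23). The lowest medians of all 51 members belonged to 2 core subunits, Smarcd1 with -0.76 and Smarcb1 with -0.75.

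Smarcb1, the SNF5 tumor suppressor, lay below the typical gene in all 7 classes. It had 51.1 CPM (113 UMIs) in explosion and 60.6 CPM (3338 UMIs) in control macrophage-like cells, 0.844-fold (0.693 to 1.02). In monocyte-like cells it had 34.1 CPM after the explosion and 50.8 CPM in control, 0.670-fold (0.483 to 0.920). In mesothelial-like cells the plain values were 58.3 and 48.2 CPM, 1.21-fold (0.863 to 1.67), so the low relative value there rests on the class median. Smarcd1, which docks transcription factors, had 19.6 CPM (34 UMIs) in explosion and 34.7 CPM (86 UMIs) in control monocyte-like cells, 0.566-fold (0.369 to 0.851). In ciliated-like cells the direction was the opposite, with 42.3 CPM from 13 UMIs after the explosion and 25.6 CPM in control, 1.65-fold (0.830 to 3.05). Smarce1, a core subunit with a DNA-binding domain, had a median of -0.07 and turned to 0.44 on the plain CPM ratio. Smarcd2, a relative of Smarcd1, had a median of 0.22, and Smarcd3, tested in mesothelial-like cells alone, had 0.64. Other listed SWI/SNF subunits, outside the naming families, had a median of 0.05 over the 7 classes, from Bcl7c at -1.44 to Bcl7a, tested in 2 classes, at 1.06. The large subunit Arid1a had 0.89.

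The ATPase pair of SWI/SNF leaned toward Smarca2 in the explosion library, with intervals apart in macrophage-like, mesothelial-like and T-like cells only. Smarca2 gave 52.8% of the Smarca2 and Smarca4 UMIs in explosion macrophage-like cells (49.2 to 56.4) and 39.8% in control ones (38.6 to 40.9), and 67.3% (61.9 to 72.4) and 54.2% (49.1 to 59.2) in mesothelial-like cells. In T-like cells the share was 57.3% (51.0 to 63.4) after the explosion and 44.8% (39.9 to 49.7) in control. The intervals overlapped in B-like cells, at 39.7% and 30.4%, and barely in monocyte-like cells, at 58.3% and 49.0%. In NK-like and ciliated-like cells the shares were nearly level between libraries, at 44.6% and 44.0% and at 57.3% and 56.9%. Fibroblast-like cells had the highest Smarca2 share in both, 82.8% (74.9 to 89.0) after the explosion and 70.9% (57.1 to 82.4) in control. Smarca5, the ATPase that the Baz proteins guide, had a median of 0.15. Its relative Smarca1 was at or near 0 in leukocytes: 0 of 268 UMIs of the pair in explosion macrophage-like cells, which allows up to 1.37% by the exact interval, and 1 of 3308 in control ones. It was seen in 5 of 29 UMIs of the pair in explosion and 3 of 157 in control ciliated-like cells, and in 32 of 549 in control secretory-like cells.

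The bromodomain readers were close to the typical gene, with a family median of 0.30 over 7 genes. Brd2 and Brd3, BET proteins that bind acetylated histones, had medians of 0.74 and 0.60. Brd7 had a median of 0.30, Brd8 of -0.03 and Brd9 of -0.16, and the last 2 turn positive on the plain CPM ratio. Brd1, a scaffold of a histone acetyltransferase complex, was lowest at -0.47 and below the typical gene in all 7 classes. Its plain levels were nearly equal, at 139 CPM after the explosion and 125 CPM in control macrophage-like cells, 1.11-fold (0.991 to 1.25), and at 147 and 158 CPM in ciliated-like cells, 0.926-fold (0.664 to 1.27).

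Cell type preferences of the genes were much alike in the 2 libraries. Levels were compared over the 12 classes with at least 50 cells in each library and, for a given gene, at least 30 UMIs. Of 51 members with 3 or more such classes, 38 had the same class highest in both libraries and 32 the same class lowest. Among the classes that so entered, B-like cells were highest in both for 15 members and T-like cells for 7, while macrophage-like cells were lowest in both for 17. A class with few UMIs in total reached 30 only for genes with a high level, so shallow classes were often left out of this ranking. Secretory-like cells were counted lowest in both for 1 member. Their summed level was nevertheless below that of macrophage-like cells, at 5133 against 6653 CPM after the explosion and 1036 against 2809 CPM in control. Of 338 pairs of gene and class, 16 were at least 2-fold above the median of the other classes in both libraries. The same counts were not made over all genes, so they do not set the members apart from other genes.

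Chd3 marked lymphocyte-like cells most clearly. In T-like cells it had 1106 CPM (1025 to 1193) in the explosion and 429 CPM (404 to 455) in the control library, 5.64 and 8.43 times the median of the other classes. B-like cells followed with 885 CPM in the explosion and 254 CPM in the control library, mast or basophil-like cells (cluster 27) with 824 and 241 CPM, and NK-like cells with 553 and 258 CPM. In the explosion library the T-like value lay above that of B-like cells without overlap of intervals, while mast or basophil-like cells (646 to 1036) overlapped with both. In the control library T-like cells stood above the other 3 classes, which overlapped each other. Cluster 27 had as many markers of type 2 innate lymphoid cells as of mast cells or basophils, 6 of each, with Il1rl1 and Gata3 beside Mcpt8 and Cpa3 among its leading genes. Monocyte-like cells had little Chd3, with 60.6 CPM after the explosion and 32.3 CPM in control. After thinning to 500 UMIs, 42.7% of explosion T-like cells (37.7 to 47.8) and 18.7% of control ones (16.7 to 20.9) held a Chd3 UMI, against 3.35% and 1.25% of monocyte-like cells. Before thinning, 37.0% of explosion T-like cells (median depth 420.0 UMIs) and 50.8% of control ones (1831.5 UMIs) held one, against 2.39% of explosion monocyte-like cells (373.0 UMIs) and 4.44% of control ones (1563.0 UMIs). The Chd3 share of Chd3 and Chd4 followed the same line: 61.8% (58.8 to 64.6) in explosion and 64.0% (61.7 to 66.2) in control T-like cells, and 14.0% (11.6 to 16.7) and 16.7% (13.4 to 20.3) in monocyte-like cells.

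**Figure D5:**
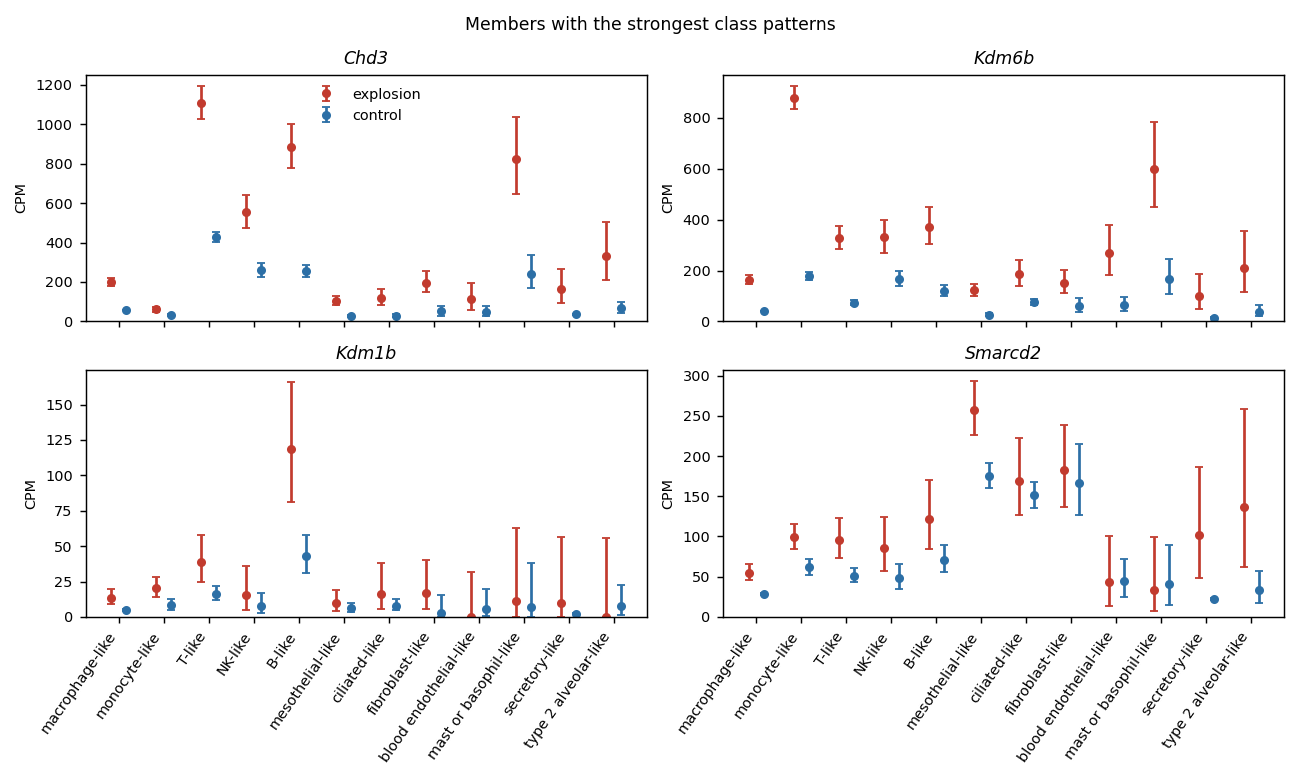
Level (CPM of the class, with 95% Poisson intervals) of Chd3, Kdm6b, Kdm1b and Smarcd2 in the 12 classes with at least 50 cells in each library, explosion in red and control in blue. T-like cells are highest for Chd3, monocyte-like for Kdm6b, B-like for Kdm1b and mesothelial-like for Smarcd2, in both libraries.

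Other members preferred other classes. Kdm6b was highest in monocyte-like cells, at 4.15 times the median of the other classes in the explosion library and 2.80 times in control, where NK-like cells, at 167 CPM, and mast or basophil-like cells, at 165 CPM, had overlapping intervals. Control neutrophil-like cells, of which the explosion library held 22, had 426 CPM of Kdm6b (361 to 499). Kdm1b, a demethylase related to Kdm1a, was highest in B-like cells with 118 CPM (81.4 to 166) after the explosion and 43.0 CPM (31.1 to 57.9) in control, or 8.71 and 6.24 times the other classes' median, from 33 and 43 UMIs. Smarcd2 is known for its role in granulocyte development, but neutrophil-like cells were not among the ranked classes, so its level there was not compared. Among the ranked classes Smarcd2 was highest in mesothelial-like cells, with 258 CPM (226 to 293) and 175 CPM (160 to 191). Fibroblast-like cells came next in both libraries with 182 CPM in the explosion and 167 CPM in the control library, and their intervals overlapped with those of mesothelial-like cells in both. Chd9 was highest in fibroblast-like cells, with 361 CPM (296 to 438) after the explosion and 98.9 CPM (68.9 to 138) in control. B-like cells, at 240.1 CPM after the explosion, were nearly level with them in control, at 96.0 CPM. The intervals also overlapped with those of blood endothelial-like cells, at 268 and 72.0 CPM, in both libraries.

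The median member also lay above the typical gene where cells of both libraries shared a cluster. Clusters 7 (monocyte-like), 12 (ciliated-like), 17 (fibroblast-like), 21 (blood endothelial-like), 22 (unnamed, led by cell division genes) and 24 (macrophage-like) each held at least 100 cells of both libraries. Their median members lay at 0.64, 0.87, 0.91, 0.95, 0.94 and 1.14 in that order. At least 2-fold higher were 12 of 54 members in cluster 7 (12.8% of all genes), 22 of 49 in cluster 12 (14.4%), 19 of 45 in cluster 17 (16.5%), 13 of 28 in cluster 21 (17.6%), 17 of 38 in cluster 22 (12.6%) and 16 of 27 in cluster 24 (18.6%). Cluster 12 is the whole ciliated-like class, so its values repeat those above. A gene could pass the filter on low counts mainly through its explosion level. Srcap did so in cluster 24, with 23 explosion and 7 control UMIs. How far this raised the medians and counts of these clusters was not tested. Kmt2d was 1.43 to 2.17 above the typical gene in these 6 clusters. In cluster 17 Kmt2d had 213 CPM (62 UMIs) in the explosion and 33.9 CPM (12 UMIs) in the control library. In cluster 21 it had 381 and 66.4 CPM.

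Related gene lists stood at different levels. The DNA methylation genes were nearest to the members, with a median of 0.73 over the 7 classes, from the repair enzyme Tdg at -0.35 to Uhrf1, which guides maintenance methylation, at 2.47 in the 2 classes that tested it. Dnmt3a, a de novo methyltransferase tested in all 7, had 1.65. COMPASS partners, which complete the Kmt2 complexes, had a median of 0.45, from Dpy30 at -2.09 to Setd1a, tested in 5 classes, at 0.97. Other histone methyltransferases had 0.41, from Smyd3 (2 classes) at -1.34 to Setd7 (3 classes) at 1.12. Deacetylases and sirtuins had 0.23, from Sirt7 at -0.85 to Hdac9 (4 classes) at 1.12, and acetyltransferases 0.19, from Ing5 (4 classes) at -1.30 to Brpf3 at 1.30. Polycomb genes were at the typical gene, with 0.01 for PRC2, from Rbbp7 at -0.82 to Jarid2 at 1.10, and 0.06 for PRC1, from Pcgf6 at -0.98 to Cbx6 at 1.29, both tested in 3 classes. NuRD genes had -0.09, from Mbd3 at -1.33 to Gatad2b at 0.82, and ISWI partners 0.02, from Chrac1 at -1.30 to Cecr2 (2 classes) at 0.85.

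Features of RNA content differed between the libraries alongside these results. Of the respiratory chain genes, 20 of 21 in B-like cells and 21 of 22 in macrophage-like cells were at least 2-fold below the typical gene, with a list median of -1.96 over the classes. Of the noncoding RNAs listed, 3 were in the files. Gas5, a host of small nucleolar RNAs, was tested in all 7 classes, with a median of -1.69. Its value does not stand for nuclear-retained RNA. Ribosomal protein genes took 4.46% of explosion and 11.8% of control UMIs in macrophage-like cells and 12.3% and 31.7% in T-like cells. The ribosomal RNA gene Rn45s went the other way. It took 0.2603% of explosion and 0.0086% of control UMIs in macrophage-like cells, and 0.4835% and 0.0242% in T-like cells. Each of the 7 classes had the larger Rn45s share after the explosion, with 0.2071% against 0.0193% in ciliated-like cells. Median depth was 1121 UMIs in explosion and 5801.5 UMIs in control macrophage-like cells. The part of depth and RNA quality in the values above was not tested. In the RefSeq annotation of GRCr8, Kmt2d overlaps Tuba1c, Srcap overlaps Tmem265 and Snora30, Baz2a overlaps Rbms2, and Chd3 overlaps Naa38; no source used here says if counting used strand, so reads of such neighbours may not be told apart.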

How the data were processed

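Per the file headers, the deposited matrices hold raw UMI counts per gene and barcode, written by cellranger 7.1.0; the authors did not normalize them. Software listed in the submitters' processing notes was bcl2fastq 2.20 with Cell Ranger 6.1.1. Both mRatBN7.2 and rn6 are listed there as builds, without saying which was used. Annotation and intron counting are not given in the sources used here.

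Barcodes needed 200 genes or more and no more than 25% mitochondrial UMIs, and Scrublet doublets were removed per library (597 explosion and 1853 control cells). With scanpy 1.11.5 and igraph 0.11.9, cells were clustered on 2000 variable genes without the 63 genes, using 15 neighbours in 30 principal components and Leiden resolution 1, with no batch integration. Clusters were named from marker genes, at least 2-fold above other clusters and in 5% of cells. Clusters 15, 18, 22, 29 and 30 stayed unnamed. Cluster 1 (2889 explosion and 25 control cells), led by Pou2f2 and Nos2, was named monocyte-like.

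UMIs were summed per class and library. Ratios are explosion over control CPM with 0.5 UMIs added to each sum, minus the class median over tested genes. A tested gene's mean CPM would give at least 10 UMIs in the shallower sum. Intervals are exact, at 95%. With 1 library per group there was no test and no paired analysis. Named genes are the 8 highest and 8 lowest of the members tested in at least 6 classes, the class patterns at least 2-fold in both libraries (at most 1 gene per class), the paralog pairs, and the highest and lowest gene of each other list. Further members are given to complete their families. Members, lists and rules were chosen with earlier results of these data known. The calculation was tested on simulated data. Gene names were matched to RefSeq (63 of 63). Some listed genes are not reported here by name, nor drawn in the figures.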

Additional observations from a re-analysis of the deposited data

How the results depend on the processing

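The median relative ratio of the members stayed above 0 in all 7 compared classes under every alternative tried, and within 0.135 to 1.31 (the lowest in macrophage-like cells with no filter on low counts). As plain CPM ratios, not relative to the class median, it was 1.30 in T-like and 1.31 in macrophage-like cells. In brackets below are the shares of all tested genes. Members at least 2-fold higher were then 28 of 52 in B-like (29.6%), 19 of 51 in NK-like (24.8%) and 41 of 56 in T-like cells (35.5%). They were 42 of 56 in macrophage-like (33.4%), 38 of 56 in mesothelial-like (30.2%) and 33 of 55 in monocyte-like cells (26.4%). At least 2-fold lower were 0 in ciliated-like (17.4%), macrophage-like (7.51%), mesothelial-like (11.4%) and monocyte-like cells (9.17%). With at least 20 UMIs in both libraries, 4 of 39 were higher in NK-like (6.29%) and 11 of 43 in ciliated-like cells (12.3%). In ciliated-like cells 0 were lower (19.0%). With no filter, 8 of 59 were higher in T-like (23.8%), 8 of 60 in ciliated-like (18.2%) and 7 of 62 in macrophage-like cells (29.9%). Lower were 1 of 57 in B-like (18.8%), 1 of 59 in NK-like (17.0%), 2 of 60 in ciliated-like (22.2%) and 5 of 62 in macrophage-like cells (21.9%). The share of members at least 2-fold higher was then below that of all genes in all compared classes but mesothelial-like. With 0.1 UMIs added, 1 of 51 was lower in NK-like cells (15.6%), and with 1 added, 0 of 49 in ciliated-like cells (20.5%). In cells with at least 500 UMIs, 2 of 14 were higher in B-like cells (14.3%, from 69 explosion cells). Lower were 1 of 46 in NK-like (15.8%), 0 of 47 in ciliated-like (20.6%) and 1 of 55 in monocyte-like cells (17.3%). In cells thinned to 500 UMIs, 2 of only 6 tested were higher in B-like (19.2%) and 13 of 31 in ciliated-like cells (13.3%). Lower were 0 of 54 in macrophage-like (17.8%), 0 of 50 in mesothelial-like (20.05%) and 1 of 52 in monocyte-like cells (18.2%). With doublets kept, 20 of 53 were higher in B-like (14.9%) and 21 of 56 in T-like cells (12.9%). Lower were 0 of 48 in ciliated-like (24.4%) and 2 of 57 in mesothelial-like cells (22.5%). With at most 10% mitochondrial UMIs, 1 of 51 was lower in NK-like (15.4%) and 0 of 48 in ciliated-like cells (20.9%). In monocyte-like cells without cluster 1, an alternative chosen after seeing the data, 1 of 55 was lower (17.8%). At Leiden resolution 2 no count moved by more than 1.5 times. The other 104 of 142 counts stayed within 1.5 times of the main one. The causes were not tested. Kmt2d kept a median of at least 1.66 and Srcap of at least 1.35 under the alternatives, Smarcb1 of at most -0.10 and Smarcd1 of at most -0.28, while Brd1, Brd8, Brd9, Kdm1a and Smarce1 turned positive under at least 1. Of 356 paralog shares, 323 moved by less than their interval. With 1 library per group the spread between animals is unknown, and explosion cells with few UMIs limit every class.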
